A study of Bos indicus with 12 samples.

Results

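Blood gene expression was compared between 3 high-yielding and 3 low-yielding cows of the Gir breed, a zebu (Bos indicus) dairy breed of India. These 6 libraries were taken by their labels out of 12, the other 6 coming from Shweta Kapila cows, and the comparison was described across all genes that passed a count filter, 14714 of 26229 identifiers. The high-yielding group consisted of untreated female Gir cows placed in that class from their lactation records, and the low-yielding group of female Gir cows placed in the other class in the same way. All were in the second or the third lactation, and 1 library was made per cow. No source used here gives the milk yields, the ages or the days in milk, so the groups can be described only by class.

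Circulating leukocytes of a lactating cow share their fuel supply with the mammary gland, which draws heavily on glucose, fatty acids and amino acids. Myeloid cells, such as neutrophils, monocytes and macrophages, sense microbes through Toll-like receptors, C-type lectins, scavenger receptors and cytosolic NOD-like receptors. Lymphocytes carry antigen receptors and depend on nutrient and zinc uptake when they divide. A difference in bulk blood RNA can come from the make-up of the blood or from the RNA of each cell, and fewer cells of a type and less RNA per cell cannot be told apart in these data.

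Total counts per library ran from 14.2 M to 20.7 M, and each library held counts for 18626 to 18979 identifiers. The labels name peripheral blood mononuclear cells, while the RNA kit they name takes in whole blood. Granulocyte receptor genes were present in all 6 cows, with CSF3R, the receptor of granulocyte colony-stimulating factor, at 965 to 2190 CPM (counts-per-million, scaled by the TMM method) and the chemokine receptor CXCR2 at 391 to 798 CPM. The T cell receptor chain CD3E stood at 541 to 862 CPM and the B cell receptor chain CD79A at 284 to 568 CPM. The first principal component held 24.2% of the variance and the second 21.8%, and on neither did the high-yielding cows separate from the low-yielding ones.

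No gene passed edgeR's quasi-likelihood test after adjustment over the 14714 genes (0 calls, or 0% of the genes tested; lowest adjusted p = 0.21). At an unadjusted p under 0.05 there were 770 genes (5.23%), against 736 under uniform p-values. Of these, 507 genes (3.45% of the genes tested) had the higher value in high-yielding cows and 263 (1.79%) the lower value. On the same genes DESeq2 called 57 at an adjusted p under 0.05, 48 higher and 9 lower in high-yielding cows. All 57 were among the genes at an unadjusted p under 0.05 in edgeR. With no filter on low counts, edgeR called 6 genes, namely the genes of fuel choice PDK4 and CPT1A, then SCARB1, TMTC2 and RAB7B, all 5 higher, and the pseudogene LOC109556068, lower. The common biological coefficient of variation was 0.259 and the median standard error (SE) of a log2 fold change 0.24. In the 3678 genes of lowest mean count (0.376 to 4.11 CPM) the median SE was 0.49, with 98 genes higher and 84 lower at p under 0.05. In the 3679 of highest mean count (55.5 to 25200 CPM) it was 0.16, with 152 higher and 55 lower.

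**Figure D1:**
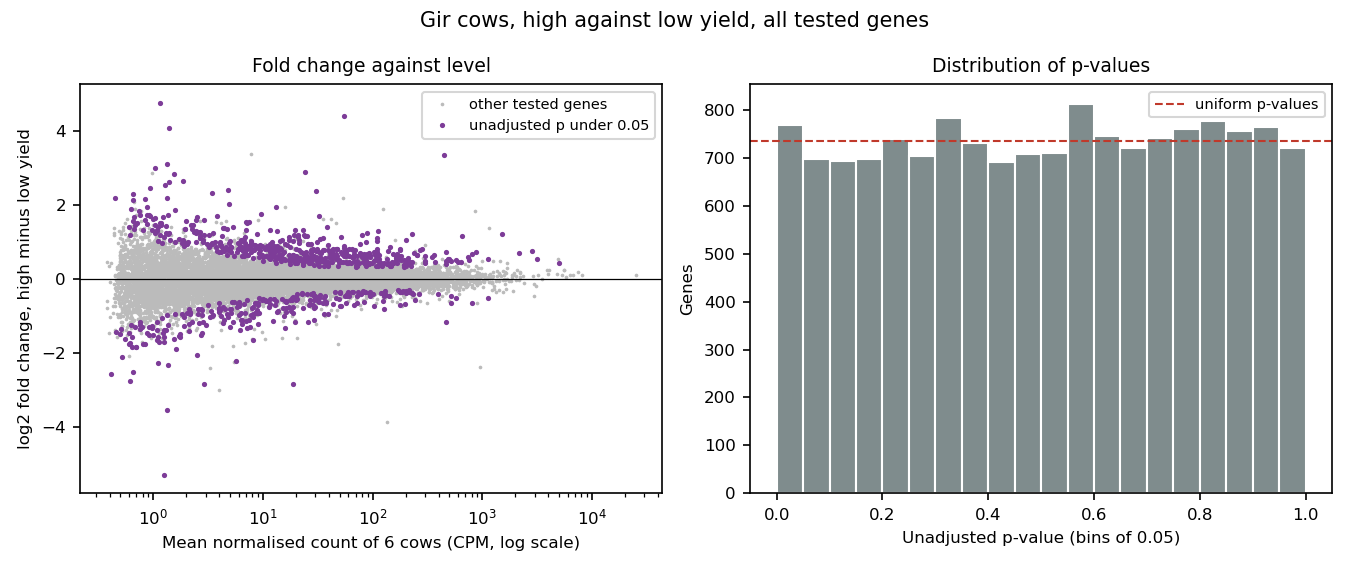
The left panel plots each of the 14714 tested genes by its mean normalised count over the 6 Gir cows (CPM, log scale) and its log2 fold change, high minus low yield, with genes at an unadjusted p under 0.05 in purple. The right panel counts genes in p-value bins of 0.05, and the first bin stands close to the dashed line that uniform p-values would give.

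PDK4, CPT1A and the members of the monocyte and interferon lists were left aside, though other genes that monocytes express were not. The 12 symbols of lowest p on the higher side then included receptors, secretory pathway enzymes and a protein of granulocytes and monocytes. SCARB1, the scavenger receptor that takes up cholesterol from high-density lipoprotein, stood at 128, 171 and 144 CPM in high 1, 2 and 3 and at 77.8, 66.9 and 74.5 CPM in low 1, 2 and 3. Every high-yielding cow was above every low-yielding one. The groups were separate in all 24 genes named by this rule, 12 on each side, which were chosen by lowest p; of all genes tested 10.2% separated the groups, 5.35% on the higher and 4.83% on the lower side. The log2 fold change of SCARB1 was 1.02 ± 0.15 (SE; edgeR adjusted p = 0.28, DESeq2 adjusted p = 0.000137). RAB7B, a small GTPase of endosome and lysosome traffic, stood at 32.5, 35.4 and 35.2 against 17.3, 12.3 and 17.0 CPM (1.15 ± 0.19). Its 3 high-yielding cows lay close together. LYPD3, a membrane protein with Ly6 domains, was at 15.5, 17.1 and 17.3 against 8.20, 5.06 and 6.82 CPM (1.31 ± 0.23), and NDRG2, of the N-myc downstream-regulated family, at 27.5, 30.3 and 28.9 against 16.3, 12.3 and 13.2 CPM (1.05 ± 0.18).

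Enzymes of the secretory pathway came next. PAM, which amidates secreted peptides, stood at 112, 89.6 and 101 CPM in the high-yielding and 59.0, 39.3 and 59.9 CPM in the low-yielding cows (log2 fold change 0.94 ± 0.19). FAM20C, the Golgi kinase that phosphorylates caseins and other secreted proteins, was at 8.04, 8.99 and 12.9 against 4.31, 4.30 and 3.46 CPM (1.31 ± 0.28). In both genes the lowest high-yielding cow was well above the highest low-yielding cow. SELENON, a selenoprotein of the endoplasmic reticulum, was at 65.3 to 82.2 against 36.6 to 45.0 CPM (0.80 ± 0.16). NRG1, a growth factor of the epidermal growth factor family, was at 21.1, 25.1 and 29.7 against 11.3, 12.3 and 13.7 CPM (1.02 ± 0.20).

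S100A9, a calcium-binding protein that granulocytes and monocytes hold in large amounts, stood at 1080, 1210 and 1020 against 710, 655 and 621 CPM (0.74 ± 0.15). SIRPB1, an activating receptor of myeloid cells, stood at 89.7, 58.1 and 67.0 against 32.3, 41.1 and 41.6 CPM (0.90 ± 0.19), and belongs to a family of similar genes whose reads may be shared. For both, the fold change was below that of the low-count genes that follow. TMTC2, an enzyme that adds mannose to proteins in the endoplasmic reticulum, had 74, 25 and 40 counts in the high-yielding and 2, 2 and 4 in the low-yielding cows (log2 fold change 4.08 ± 0.64; DESeq2 adjusted p = 0.000494). NMUR2, a receptor of the peptide neuromedin U, had 11, 57 and 53 against 2, 0 and 2 counts (4.75 ± 0.88). With 8 and 4 counts in the whole low-yielding group, the size of these 2 fold changes depends on how small counts are treated. Both genes passed the count filter through the high-yielding cows. DESeq2 called all 12 genes, and edgeR adjusted p-values ran up to 0.576.

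The 12 symbols of lowest p on the lower side included genes of mucosal antibody transport, cold response and zinc uptake, and 11 of them are described here. PIGR, the receptor that carries dimeric IgA across epithelia, stood at 5.22, 3.27 and 3.71 CPM in the high-yielding and 9.24, 11.1 and 10.2 CPM in the low-yielding cows (log2 fold change −1.32 ± 0.27; edgeR adjusted p = 0.547, DESeq2 adjusted p = 0.00483). ELAPOR2, a membrane protein of the endosome and lysosome, was at 3.78, 4.16 and 3.71 against 8.82, 10.8 and 7.65 CPM (−1.22 ± 0.26). The high-yielding cows were close together in ELAPOR2 and less so in PIGR. RBM3, an RNA-binding protein induced by mild cold, was at 37.7, 45.4 and 34.2 against 64.2, 71.8 and 58.0 CPM (−0.73 ± 0.17). SLC39A6, a zinc importer, was at 39.7, 32.8 and 26.7 against 59.3, 50.9 and 49.8 CPM (−0.69 ± 0.18). High 1 came nearest to the low-yielding cows in SLC39A6.

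TRIB2, a pseudokinase, stood at 49.7, 56.3 and 62.4 against 87.5, 75.9 and 103 CPM (−0.66 ± 0.16), and SERINC5, a membrane protein that limits retrovirus infection, at 69.2, 65.9 and 61.4 against 109, 86.8 and 104 CPM (−0.61 ± 0.15). RHEX, a regulator of erythroid cell expansion, was at 74.5 to 119 against 128 to 191 CPM (−0.80 ± 0.21). In CD24 and PLCXD3, 1 low-yielding cow stood far above the other low-yielding cows. CD24, a surface glycoprotein of B cells and granulocytes, was at 9.90, 8.88 and 8.38 against 36.9, 13.2 and 18.2 CPM, with low 1 the highest, and its log2 fold change of −1.33 ± 0.35 was −0.78 without low 1. PLCXD3, with a phospholipase C domain, had 4, 2 and 5 counts in the high-yielding and 13, 18 and 111 in the low-yielding cows (−3.54 ± 0.84, and −2.16 without low 3). PLCXD3 passed the count filter through the low-yielding cows. MTUS1, a microtubule-associated protein, was at 2.28, 2.33 and 1.43 against 9.03, 4.14 and 15 CPM (−2.22 ± 0.46), and NRIP3 at 2.64, 3.27 and 5.99 against 7.99, 16.6 and 12.5 CPM (−1.64 ± 0.37). DESeq2 called 7 of the 12 genes, and edgeR adjusted p-values of the 11 described ran from 0.547 to 0.67.

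**Figure D2:**
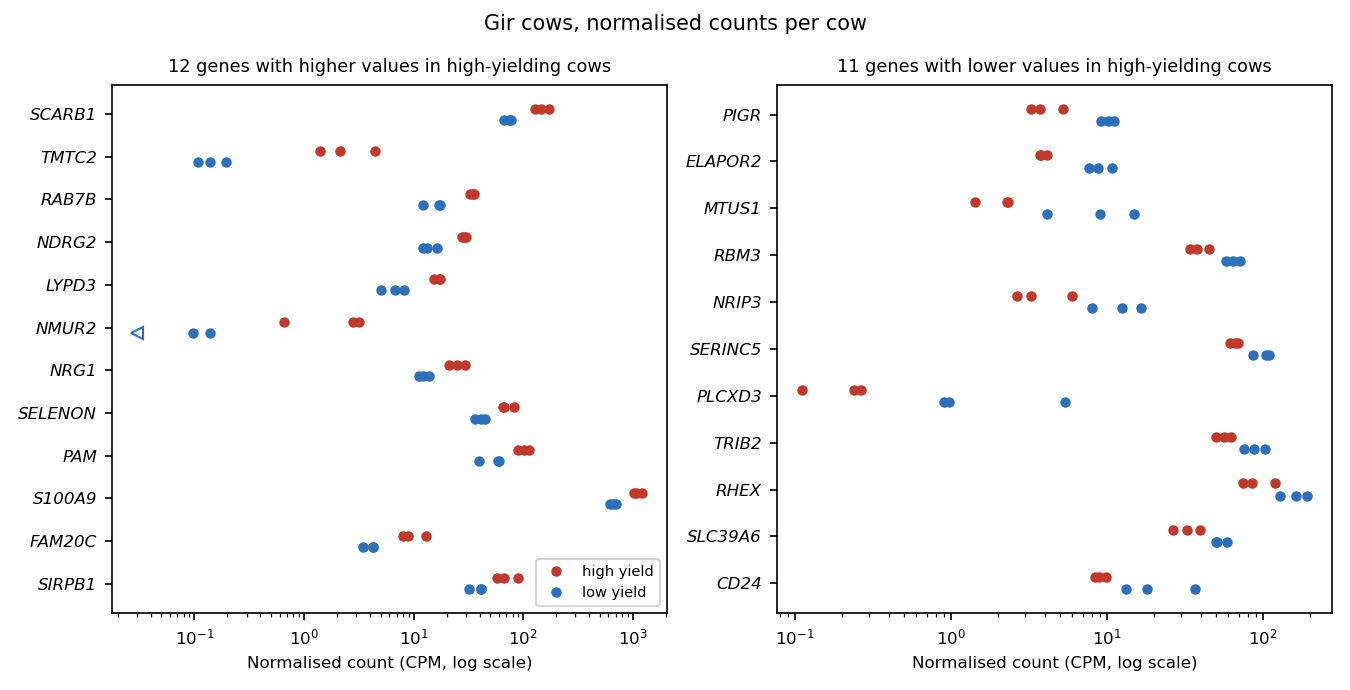
Normalised counts (CPM, log scale) are plotted for each of the 3 high-yielding (red) and 3 low-yielding (blue) Gir cows, for the 12 named genes with higher and the 11 described with lower values in high-yielding cows; the open triangle marks a count of 0 for NMUR2 in low 2. Red and blue points do not overlap in any of the 23 genes drawn, which the choice by lowest p favours.

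Receptors that sense microbes were the list with the most members at a low p. Of 28 tested pattern recognition receptor genes 24 had the higher value in high-yielding cows, with a median log2 fold change of 0.47, against 47.5% of all genes with the higher value and a median of −0.014. At an unadjusted p under 0.05 there were 10 members, all higher, against 3.45% of all genes, and 7 members separated the groups on the higher side, against 5.35% of all genes. TREM1, which amplifies inflammatory signals in neutrophils and monocytes, stood at 64.1, 95.3 and 88.2 against 48.1, 52.4 and 42.1 CPM (0.80 ± 0.18; DESeq2 adjusted p = 0.034). MSR1, the class A macrophage scavenger receptor, was at 8.10, 16 and 7.10 against 2.92, 2.45 and 5.36 CPM (1.53 ± 0.41). In both genes all high-yielding cows were above all low-yielding ones. The following members were chosen after their values were seen. TLR4, the receptor of lipopolysaccharide, was at 111, 123 and 172 against 84.1, 65.8 and 99.1 CPM (0.70 ± 0.21), and its adaptor MYD88 at 490, 717 and 598 against 430, 378 and 487 CPM (0.48 ± 0.18). TLR2, the receptor of bacterial lipopeptides, was at 165, 122 and 177 against 115, 118 and 116 CPM (0.41 ± 0.16). The scavenger receptor MARCO stood at 1.71 ± 0.50, the inflammasome genes NLRC4 and NLRP3 at 0.62 ± 0.22 and 0.54 ± 0.21, and the lectin CLEC4D at 0.60 ± 0.25. On the other side TLR10 stood at 30.4, 18.2 and 24.1 against 30.2, 27.3 and 57.2 CPM (−0.66 ± 0.30, and −0.24 without low 3).

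No receptor gene passed edgeR's test over all genes, and the lists were chosen with earlier results of these data known. The 10 members at p under 0.05 became 5 without high 3, 5 without low 2, 15 without low 3 and 3 with all 12 libraries in the fit, while 24 or 25 of 28 members had the higher value with any 1 of the 6 Gir cows left out. Monocyte marker genes stood higher alongside this list. The summed level of the 8 monocyte markers was 1670 to 1800 CPM in high-yielding and 1120 to 1310 CPM in low-yielding cows, with 5 of 8 at an unadjusted p under 0.05, all higher, and none of the 8 at 0. The 5 became 3 without high 3, 3 without low 2 and 1 with all 12 libraries in the fit. CD14, the co-receptor of TLR4, is in both lists and stood at 44.0, 43.6 and 64.4 against 31.3, 21.8 and 28.0 CPM (0.91 ± 0.21). The part of monocyte number in the receptor values was not tested.

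**Figure D3:**
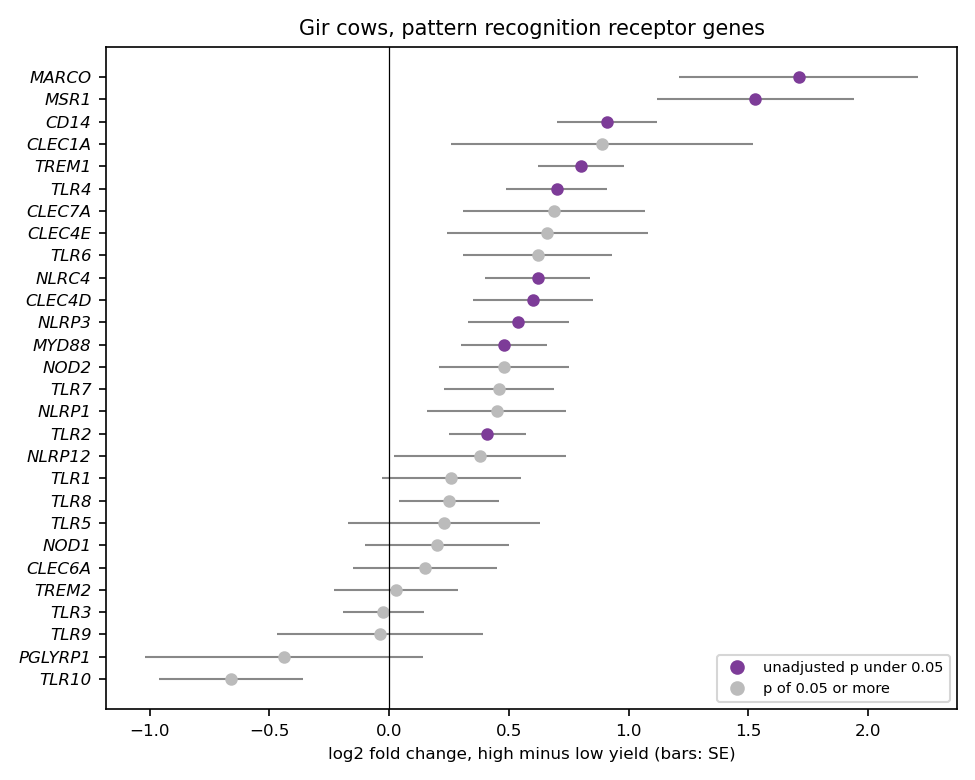
The log2 fold change, high minus low yield, is plotted for the 28 tested pattern recognition receptor genes with bars of 1 SE, and members at an unadjusted p under 0.05 are purple. The 10 purple genes lie to the right of 0, and TLR10 and PGLYRP1 lie farthest to the left.

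Genes of the response downstream of these receptors were fewer at a low p. Of 35 inflammatory cytokine and NF-kB genes 23 had the higher value (median 0.16) and 5 were at an unadjusted p under 0.05, all higher. Over all genes 47.5% had the higher value, and at that p 3.45% were higher and 1.79% lower. These shares apply to the lists that follow. IL1RN, the antagonist of interleukin 1, stood at 283, 333 and 460 against 231, 207 and 176 CPM (0.81 ± 0.20; DESeq2 adjusted p = 0.0467), and SOD2, the manganese superoxide dismutase of mitochondria, at 201, 251 and 363 against 164, 88.4 and 144 CPM (1.04 ± 0.27). NFKBIA, the inhibitor of NF-kB, was at 143, 138 and 156 against 105, 110 and 110 CPM (0.43 ± 0.13). High 3 had the highest value in all 3 genes. IL12B, a subunit of interleukins 12 and 23, had 33, 17 and 49 against 4, 0 and 8 counts (3.00 ± 0.80), and passed the count filter through the high-yielding cows. The cytokine OSM, chosen after its values were seen, stood at 0.85 ± 0.32. Of 22 complement and coagulation genes 17 had the higher value (median 0.30), 4 of them at an unadjusted p under 0.05. C3, the central complement protein, was at 80.6, 72.8 and 109 against 54.0, 33.4 and 65.0 CPM (0.78 ± 0.25), and properdin CFP at 0.59 ± 0.22. The coagulation factor F13A1 was at 1210, 1340 and 3830 against 764, 984 and 1000 CPM (1.21 ± 0.43, and 0.48 without high 3). On the higher side 8 members of the complement list were at p under 0.05 without low 1 and 1 without low 2, when 2 were on the lower side. In the cytokine list 9 were without high 1.

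Antioxidant genes included 6 of 31 members at an unadjusted p under 0.05, all higher, against 3.45% of all genes. The list median was 0.088. HMOX1, which breaks down haem, was at 56.9, 49.0 and 73.1 against 47.0, 26.2 and 28.6 CPM (0.82 ± 0.25), and PRDX2, a peroxiredoxin abundant in red cells, at 181, 197 and 228 against 144, 117 and 159 CPM (0.53 ± 0.16). NFE2L2, the transcription factor that drives many antioxidant genes, stood at 131, 140 and 145 against 102, 89.1 and 115 CPM (0.44 ± 0.14), and the ferritin chain FTH1 at 0.70 ± 0.29 (0.25 without high 3). These 2 were chosen after their values were seen. Of 26 glucocorticoid response genes 19 had the higher value (median 0.18), 4 of them, PDK4, NFKBIA and KLF4 included, at p under 0.05. KLF4 stood at 0.74 ± 0.25, and the 4 became 8 without low 1 and 2 without low 2. Of 22 immediate early genes 13 had the higher value (median 0.27, and 0.014 without low 3), and 3 were at p under 0.05. These 3 became 1 without high 3 or low 2, with all 12 libraries or with library size alone, and 6 without low 1, while 3 were lower without low 3. The transcription factor FOS stood at 75.5, 28.8 and 44.7 against 24.8, 10.5 and 10.9 CPM (1.70 ± 0.45; DESeq2 adjusted p = 0.00679), JUN at 0.36 ± 0.15 and BTG2 at 0.35 ± 0.15. Of 26 heat shock genes 19 had the higher value (median 0.12), with the small chaperone HSPB1 (0.51 ± 0.14) and HSPH1 (0.50 ± 0.19, and 0.30 without high 1) at p under 0.05. CRYAB did not pass the count filter in these 6 libraries.

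In fatty acid metabolism beyond PDK4 and CPT1A, 30 further members of the list were tested. ECI2, an enzyme of the oxidation of unsaturated fatty acids, was at 2.58, 5.10 and 3.76 against 1.18, 1.42 and 1.02 CPM (1.66 ± 0.39). The fatty acid carrier FABP3 was on the lower side at 23.4, 26.1 and 16.1 against 46.5, 36.3 and 24.3 CPM (−0.71 ± 0.26, and −0.45 without low 1), with overlap between high 2 and low 3. Over the whole list 24 of 32 members had the higher value (median 0.11), 5 higher (3 without high 2) and 1 lower at an unadjusted p under 0.05. PDK4 and CPT1A were among the 5 higher members. Of 28 sterol genes 18 had the higher value (median 0.076). NR1H3, the liver X receptor alpha that senses oxysterols, stood at 0.80 ± 0.25 and FDFT1, squalene synthase, at 0.34 ± 0.15, the only sterol genes at p under 0.05. Of 23 milk synthesis genes 15 had the higher value (median 0.10), but 9 did without high 3 (−0.13). XDH, xanthine dehydrogenase, which in the mammary gland coats milk fat globules and in leukocytes makes uric acid, was at 714, 572 and 1430 CPM in high-yielding and 382 to 456 CPM in low-yielding cows (1.15 ± 0.31, DESeq2 adjusted p = 0.0321, and 0.65 without high 3). FABP3 and the glucose transporter SLC2A1 were the 2 milk synthesis genes lower at p under 0.05.

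Glycolysis genes were divided. Of 26 members 17 had the higher value (median 0.082), with 2 higher and 2 lower at an unadjusted p under 0.05. The muscle-type enolase ENO3 (0.59 ± 0.19) and PFKFB4, which sets the level of a phosphofructokinase activator (0.64 ± 0.21), were on the higher side. SLC2A1 stood at 11.1, 10.3 and 11.7 against 29.1, 16.8 and 11.8 CPM (−0.79 ± 0.31, and −0.35 without low 1), and the hexokinase HK2 at −0.71 ± 0.30 (−0.47 without high 2). High and low values of SLC2A1 nearly touched at high 3 and low 3. Of 18 hypoxia response genes 12 had the higher value (median 0.11), with NDRG1 (0.74 ± 0.24, and 0.44 without high 3) and P4HA1 (0.54 ± 0.18) higher and SLC2A1 lower at p under 0.05. Of 30 growth hormone, prolactin and insulin signalling genes 14 had the higher and 16 the lower value (median −0.048, and 0.038 without low 1), and 1 was at p under 0.05, the binding protein IGFBP4 (−0.47 ± 0.21).

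T cell genes had lower values in high-yielding cows in 24 of 27 members (median −0.19), but 1 member, the T cell transcription factor BCL11B (15.2, 11.1 and 11.9 against 20.5, 23.5 and 13.7 CPM, −0.60 ± 0.24), was at an unadjusted p under 0.05. Their summed level of 5070 to 5420 CPM in high-yielding cows lay inside the 4500 to 6830 CPM of low-yielding cows, where low 3 was the lowest of all. Without low 3, 9 T cell members were lower at p under 0.05, and without high 3, low 1 or low 2 none was. NK and cytotoxic genes were lower in 12 of 14 (median −0.33) and eosinophil, basophil and mast cell genes in 11 of 12 (median −0.39), with 0 members at p under 0.05 in edgeR in either list. In DESeq2 1 eosinophil list member and 0 NK members were at an unadjusted p under 0.05. Without low 3 there were 5 NK and 4 eosinophil list members lower at that p, and without high 1 there were 2 and 4. Without low 1 there were 2 eosinophil list members, and without low 2 there was 1 NK member on the higher side. The members of lowest p were EOMES, a transcription factor of cytotoxic lymphocytes (−0.48 ± 0.22), and the lipoxygenase ALOX5 (−0.66 ± 0.31, and −0.38 without low 1). Of 20 B cell genes 15 were lower (median −0.12), but 14 were higher without low 3 (0.14), 11 without high 1 (0.021) and 13 with limma-voom (0.068). The 2 at p under 0.05 pointed in opposite directions. CD24 was lower, and FCER2, the low-affinity IgE receptor of B cells and macrophages, stood at 143, 142 and 189 against 101, 44.9 and 47.8 CPM (1.29 ± 0.31; DESeq2 adjusted p = 0.00875).

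Genes of protein synthesis and respiration had small differences. Cytosolic ribosomal protein genes had the lower value in 58 of 76 members (median −0.075) and nuclear oxidative phosphorylation genes in 48 of 73 (median −0.09). Each list had 2 members at an unadjusted p under 0.05, all lower, among them COX7A2 (−0.87 ± 0.33), COX6B1 (−0.77 ± 0.28, and −0.45 without low 1) and RPL26L1 (−0.55 ± 0.22). Over all genes 1.79% were lower at that p, so these counts do not set the 2 lists apart. Without low 1 the ribosomal median was 0.051 and the oxidative phosphorylation median 0.064, and without low 3 there were 15 and 14 members lower at p under 0.05. Proteasome subunit genes (34 tested, median 0.029) and cell cycle genes (40 tested, median 0.028) had 0 members at p under 0.05. DESeq2 also had 0 members at p under 0.05 in either list. Without low 2, however, 36 of 40 cell cycle genes were higher, 4 of them at p under 0.05 (median 0.24), and without high 1 there were 14 higher (−0.083). The cell cycle median was also below 0 without low 1 or low 3, with limma-voom and with library size alone, and the proteasome median without high 1, high 2 or low 3 and with library size alone.

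Among the remaining cell type markers, 14 of 20 neutrophil genes had the higher value (median 0.24), 3 of them at an unadjusted p under 0.05, namely S100A9, TREM1 and the oxidase subunit NCF4 (0.47 ± 0.20). Their summed level was 6730 to 9560 CPM against 5400 to 6970 CPM, so the groups overlapped. Without high 1 or low 3 there were 5 at that p, and without high 2 there were 2 higher and 1 lower. Without high 3, 12 of 20 neutrophil genes had the higher value (median 0.059), with 4 higher and 2 lower at that p. With all 12 libraries in the fit 1 was at that p. Osteoclast and giant cell genes had the higher value in 11 of 14 (median 0.28). DCSTAMP, a membrane protein needed for the fusion of macrophages and osteoclasts, was at 58.4, 11.3 and 58.9 against 7.23, 3.87 and 6.18 CPM (2.90 ± 0.65; edgeR adjusted p = 0.665, DESeq2 adjusted p = 0.0227). Its 2 high values were in high 1 and high 3, and without high 2 it passed edgeR's test at an adjusted p under 0.05. TCIRG1, a proton pump subunit, and the chloride exchanger CLCN7 stood at 0.75 ± 0.31 (0.34 without high 2) and 0.48 ± 0.21 (0.27 without high 3). With DCSTAMP they were the 3 members at p under 0.05, which became 1 without high 3 or low 2, 2 without low 3 and 5 without high 1. Platelet genes were evenly divided (10 higher and 9 lower of 19, median 0.0026, and −0.33 without high 2), with the matrix protein THBS1 at 26.3, 34.1 and 39.2 against 14.8, 7.19 and 17.9 CPM (1.32 ± 0.31). Of 16 erythroid genes 13 had the higher value (median 0.20), but 7 did without high 3 (−0.046). GATA1, the erythroid and eosinophil transcription factor, stood at −0.54 ± 0.22. ALAS2, the first enzyme of haem synthesis in red cell precursors, was at 542 CPM in high 3 and 9.18 to 105 CPM in the other 5 cows.

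Epithelial and keratinocyte genes were mostly at low counts, with 12 of 36 listed symbols past the filter. GJB2, a connexin of gap junctions, had 42, 40 and 62 against 8, 10 and 1 counts (2.83 ± 0.65; DESeq2 adjusted p = 0.0127). C23H6orf132, a gene with little described function, was at 9.00, 3.83 and 4.45 against 0.903, 2.01 and 0.536 CPM (2.31 ± 0.53). With LYPD3 and the desmosome protein DSP (1.63 ± 0.55, chosen after its values were seen) they made 4 members higher at an unadjusted p under 0.05. GJB2 and DSP passed the count filter through their high-yielding cows, so their entry depended on the group with the higher value. Of the other 8 tested members 7 had the lower value (median of the list −0.16, and 0.17 without low 2 or 0.54 with the filter of 1 CPM in 3 libraries). The exception was the epithelial adhesion gene EPCAM, at 0.742 to 4.32 CPM with overlap, and 3 listed genes were at 0 in all 6 cows. The summed level of the list was 44.6 to 56.4 CPM against 32.7 to 43.7 CPM. That sum includes the 4 members at p under 0.05. LYPD3 held 15.5 to 17.3 against 5.06 to 8.20 CPM of it, and C23H6orf132 3.83 to 9.00 against 0.536 to 2.01 CPM. The separate sums therefore do not describe the other members, whose level was not summed apart. Smooth muscle and stromal genes had the lower value in 11 of 13 (median −0.41). ACTA2, smooth muscle actin, was at 3.48, 4.77 and 5.35 against 8.34, 74.3 and 15.3 CPM (−2.85 ± 0.90, and −1.39 without low 2), and TPM1 stood at −0.51 ± 0.20 (−0.27 without low 1). Neither was at p under 0.05 without high 2 or without high 3. In low 2 the endothelial and platelet gene VWF was also high, at 117 CPM against 10.2 to 44.2 CPM in the other 5 cows. Endothelial genes were evenly divided (4 higher and 4 lower of 8, median 0.11, and −0.18 with the filter of 1 CPM in 3 libraries), with PECAM1 at 0.47 ± 0.21 (0.25 without high 3).

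The other lists held few members at a low p. Dendritic cell genes (8 of 13 higher, median 0.22) had BATF3, a transcription factor of dendritic cells, at 1.17 ± 0.37, but without high 2 there were 6 higher (−0.066) and 0 at an unadjusted p under 0.05. Class II antigen presentation genes (7 of 9 higher, median 0.10, and 4 of 9 without high 3) had the protease CTSS at 0.41 ± 0.18. Of 33 ion channel genes 17 were higher (median 0.11, and −0.029 without high 2) and 4 were at an unadjusted p under 0.05, all higher (1 without low 2). KCNT1, a potassium channel gated by sodium, stood at 15, 26.2 and 18.9 against 7.64, 12.4 and 9.20 CPM (1.04 ± 0.27), the ATP receptor P2RX4 at 0.48 ± 0.15 and the aquaporin AQP9 at 0.64 ± 0.22. Phospholipase and diacylglycerol genes (12 of 29 higher, median −0.033) included PLD2, a phospholipase D, at 0.780, 1.11 and 0.212 against 7.64, 0.871 and 6.67 CPM (−2.84 ± 0.83). Low 2 lay among the high-yielding cows in PLD2. PLCB3 (0.51 ± 0.21, and 0.33 without high 3) and DGKE (−0.40 ± 0.17) were the other members at p under 0.05. Cilium and hedgehog genes (17 of 36 higher, median −0.028) had KIF7, a kinesin of the primary cilium, at 2.64, 3.77 and 3.08 against 6.46, 6.97 and 4.97 CPM (−0.95 ± 0.29), and BBS9 at 0.62 ± 0.27. Plasma cell genes (7 of 14 higher, median 0.0094) had 0 members at p under 0.05 in edgeR and 0 in DESeq2, the lowest p being that of XBP1, a transcription factor of secretory cells (0.24 ± 0.17, and 0.091 without low 3). Gamma-delta T cell genes (4 of 6 higher, median 0.013) had SOX13 at −0.94 ± 0.32. The medians of the plasma cell, gamma-delta T cell, cilium and phospholipase lists took either sign across the cows left out. For reference, monocyte genes were higher in 7 of 8 (median 0.66) and interferon response genes lower in 29 of 36 (median −0.13), a direction that turned without high 1 (20 of 36 higher, 0.034).

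**Figure D4:**
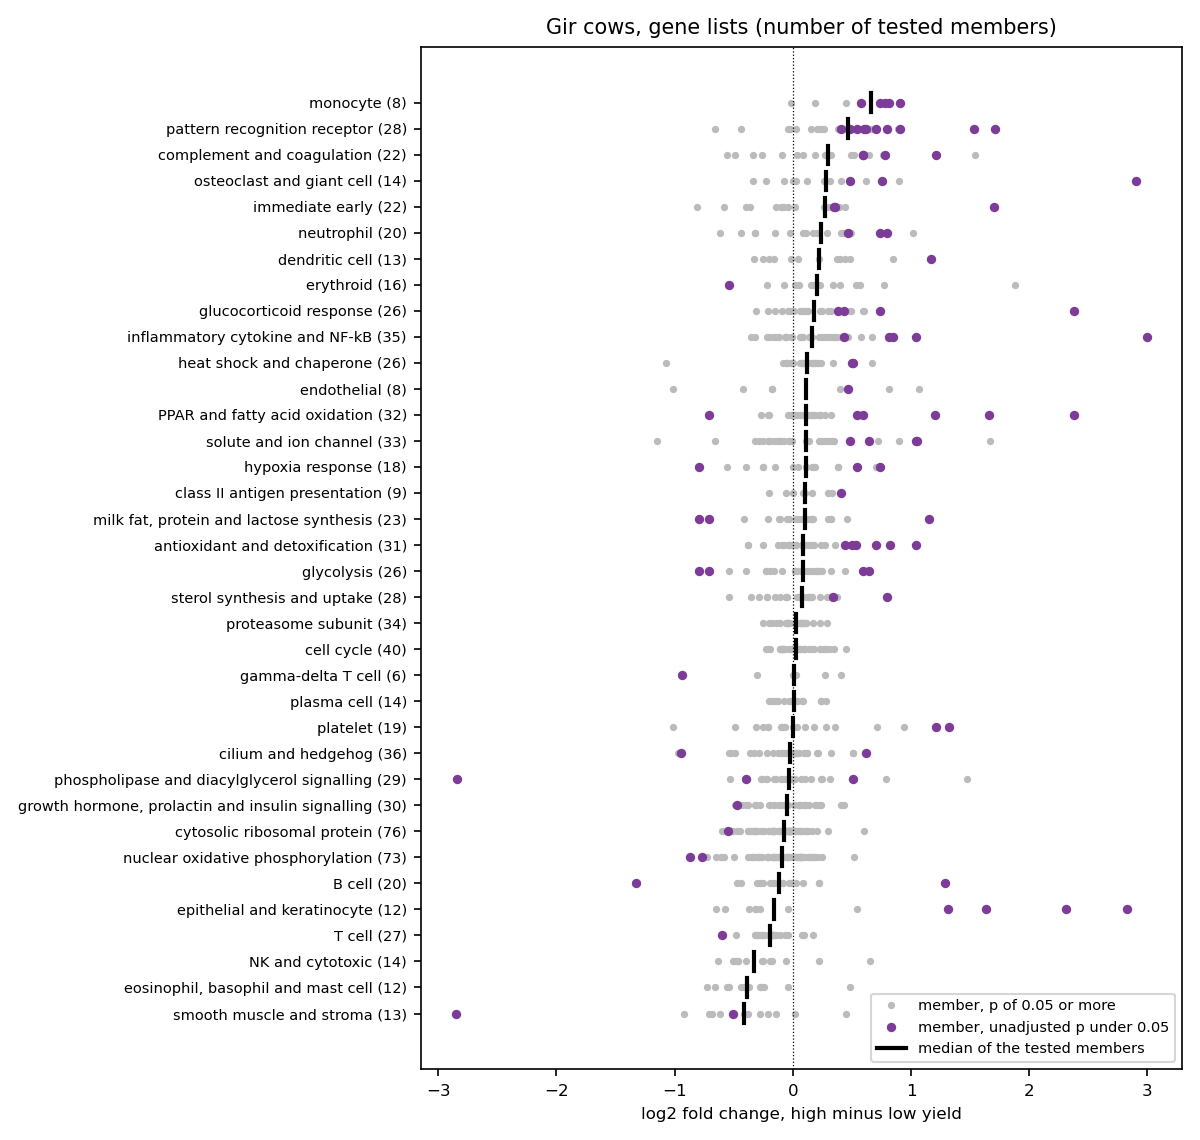
Each grey or purple point is the log2 fold change, high minus low yield, of a tested member of the gene list named at the left (number of tested members in parentheses), purple at an unadjusted p under 0.05, and black bars are list medians; the interferon list is not drawn. Monocyte (0.66) and pattern recognition receptor (0.47) genes have the highest medians, and smooth muscle and stromal genes (−0.41) the lowest.

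The same genes were then looked up in the 3 high-yielding and 3 low-yielding Shweta Kapila cows, which played no part in choosing them. Of the 12 genes on the higher side in Gir 11 were tested in Shweta Kapila, and 7 of these had the same direction (63.6%, against 52.2% of all genes with the higher value in Gir). Of the 12 on the lower side 8 had the same direction (66.7%, against 55.9%). None of the 23 was at an unadjusted p under 0.05 in Shweta Kapila in the same direction (edgeR, 0 genes), where the share over all genes was 1.67% of those higher and 1.17% of those lower in Gir, so that the count of 0 does not set the 23 genes apart. The log2 fold change was 0.20 ± 0.44 for SCARB1, 0.27 ± 0.50 for RAB7B, 0.58 ± 0.51 for S100A9 and −0.94 ± 0.44 for TRIB2. The SEs of these 4 genes were larger than in Gir. Shweta Kapila high 1 was the highest of all cows of that breed in SCARB1, RAB7B and S100A9. High-yielding against low-yielding values were 133, 43.1 and 61 against 67.8, 57.9 and 81.1 CPM for SCARB1. They were 37.2, 11.3 and 12.6 against 17.5, 18.6 and 14.7 CPM for RAB7B. For S100A9 they were 1380, 344 and 486 against 566, 457 and 456 CPM. The positive values of these genes thus rested on 1 cow. SIRPB1 stood at −0.89 ± 0.55 and RBM3 at 0.63 ± 0.36, the reverse of Gir. C23H6orf132 was also reversed, at −1.59 ± 0.60, with an unadjusted p under 0.05. Microbe-sensing receptor genes described in Gir lay on both sides of 0 in Shweta Kapila. Higher were TREM1 (0.33 ± 0.44), MARCO (0.23 ± 1.03) and the adaptor MYD88 (0.17 ± 0.42). Lower were TLR2 (−0.73 ± 0.43), NLRP3 (−0.57 ± 0.43), NLRC4 (−0.54 ± 0.56) and CLEC4D (−0.32 ± 0.58). TLR4 (−0.24 ± 0.49), MSR1 (−0.19 ± 0.54), CD14 (−0.11 ± 0.46) and, as in Gir, TLR10 (−0.6 ± 0.42) were also lower. None of these was at an unadjusted p under 0.05 there (edgeR). KCNT1 (1.26 ± 0.42) and DCSTAMP (3.33 ± 1.05) were higher in high-yielding cows of both breeds, which was already known when they were listed.

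The difference between the breeds was tested in a fit over all 12 libraries, as the Gir yield difference minus the Shweta Kapila yield difference. edgeR's quasi-likelihood test called 0 of 15420 genes (0%, lowest adjusted p = 0.955), and 587 genes (3.81%) were at an unadjusted p under 0.05, against 771 under uniform p-values. DESeq2 called 9 genes, of which TMTC2 (6.13, adjusted p = 0.00753) and C23H6orf132 (3.94, adjusted p = 0.0103) had a positive difference. TMTC2 was at 0.365, 0.419 and 0.509 CPM in high-yielding and 0.0858, 2.36 and 2.68 CPM in low-yielding Shweta Kapila cows, and edgeR's adjusted p for its difference was 0.955 (0.0414 without Shweta Kapila low 1). For the other genes named here no difference between the breeds was called by either tool.

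**Figure D5:**
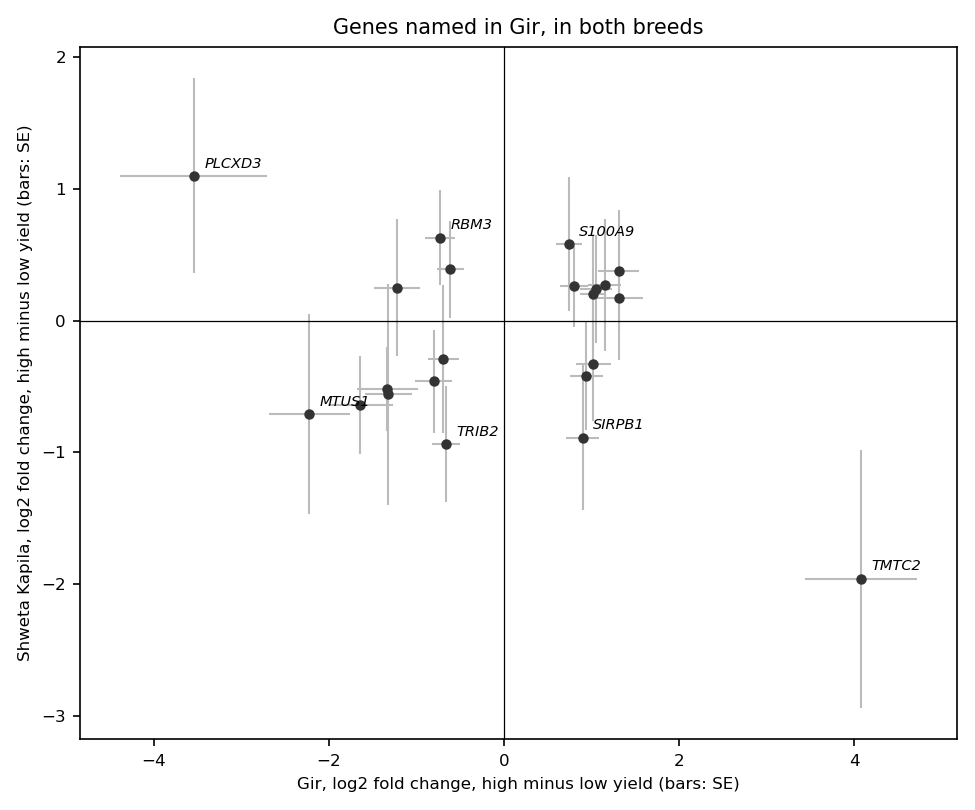
The log2 fold change, high minus low yield, in Gir (horizontal) is plotted against that in Shweta Kapila (vertical) for 22 named genes tested in both breeds, with bars of 1 SE. The 22 genes separate along the Gir axis, by which they were chosen, and lie on both sides of 0 on the other, with TMTC2 farthest down at −1.96 ± 0.98.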

How the data were processed

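The authors deposited estimated counts per gene (expected counts, not normalized), of which 56.5% in the Gir libraries are not whole (tolerance 1e-06). Trimmomatic and FastQC appear, with no version, in the submitters' processing notes. The aligner, counting program, strand setting, genome build and annotation were not stated in any source used here, so reads of similar or overlapping genes may be split in unknown ways. Ribosomal RNA was removed and the library kit marks strand, per the labels' protocols. Symbols came by identifier from a RefSeq gene table (assembly NIAB-ARS_B.indTharparkar_mat_pri_1.0, names only; 22754 of 26229 identifiers, 86.8%). Identifiers of 7 or 8 digits (37) matched none and held 6.20% to 8.70% of a Gir library.

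Counts were rounded and fitted for the 6 Gir libraries alone in R 4.3.3 with edgeR 4.0.16: filterByExpr by group (minimum count 10, minimum total 15), TMM scaling, robust quasi-likelihood fit, 2-sided test, Benjamini-Hochberg adjustment over 14714 genes, false discovery rate 0.05. A count of 10 equals 0.484 to 0.704 CPM across the libraries, and genes near that level carry the largest errors. The SE of a log2 fold change was derived from the test, as its absolute value divided by the square root of the quasi-likelihood F statistic. The script was tested on simulated data. DESeq2 1.42.0 and limma 3.58.1 (voom with sample weights) were alternatives; other scalings, filters, covariates, the replicate block, a fit over 12 libraries and each cow left out were also run. The fit of the 6 Shweta Kapila libraries alone used the same settings and was added after the data were seen. Plots were drawn in Python 3.11.15.

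Named genes were the 12 symbols of lowest p on each side (mean of at least 1 CPM, no LOC numbers, no monocyte or interferon genes, not PDK4 or CPT1A), up to 3 members of lowest p on each side of a list, and 12 genes of earlier description. Of the 12 on the lower side, 1 counts in the totals and is not reported here. The groups and the 37 gene lists were chosen with earlier results of these data known, so lists are described by counts and medians and not tested. Lists share members. Each library is a separate cow, so p-values measure the spread between cows. The labels do not say whether the replicate numbers pair the cows, and the main fit used no pairing.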

Additional observations from a re-analysis of the deposited data

How the results depend on the processing

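The number of genes called by edgeR in Gir, 0, was also 0 with limma-voom, either other scaling, the filter of 1 CPM in 3 libraries, the fit without the robust option, the fit of all 12 libraries, the replicate block and both covariates. DESeq2 called 57 genes and edgeR without a low-count filter 6, and with 1 cow left out the count ran from 0 to 4. The 4 genes called without high 2 were DCSTAMP, LOC109578670, LOC109578671 and LOC109578672, and the 1 called without low 3 was PAPSS2 (chosen after their values were seen). Genes at an unadjusted p under 0.05, 770 as reported, were 1377 with limma-voom and 291 with all 12 libraries in the fit, whose common coefficient of variation was 0.381 against 0.259, and 587 to 1079 with 1 cow left out. With library size alone as scaling 442 were higher and 353 lower (55.6% higher), against 507 and 263 as reported, and without low 3 they were 596 and 483 (55.2%). Where not stated, the cause was not tested. With 1 cow left out, glycolysis genes at that p numbered 1 to 4 higher and 0 to 4 lower, sterol genes 1 to 3 and 0 to 1, and heat shock genes 2 to 4 and 0 to 1. The median of all genes moved by less than 0.1 under every scaling. For the difference between the breeds DESeq2 called 9 genes where edgeR called 0, and with 1 cow left out the edgeR count ran from 0 to 1 (TMTC2, without Shweta Kapila low 1).

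Of the 24 genes of lowest p, 24 were at an unadjusted p under 0.05 with each of the 6 cows left out and 16 under all 17 settings. These genes were chosen by lowest p in the same 6 cows, which favours both counts, so the counts are no separate support. NMUR2 and PLCXD3 fell outside the filter of 1 CPM in 3 libraries, and the other 22 kept their direction in all 17. No named gene changed direction in any of the settings. Same-numbered high- and low-yielding cows deviated from their group means with correlations of −0.068, −0.07 and 0.0071, and high 1 and low 2 with 0.14. These values gave no sign of a pairing by number, but with 3 cows per group they cannot exclude one. With the replicate block 0 genes were called and 681 were at an unadjusted p under 0.05, and the block left 0 calls for the breed difference. Depth limits genes near 1 CPM, where 1 library has about 14 to 21 counts.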

Other observations

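The following genes lie outside the named set and were picked from DESeq2's 57 calls after their values were seen. VSIG4, a complement receptor of resident macrophages, stood at 9.48, 8.99 and 8.64 CPM in high-yielding against 3.96, 5.17 and 3.65 CPM in low-yielding Gir cows (log2 fold change 1.08 ± 0.25). FCGRT, the neonatal Fc receptor that protects IgG from breakdown, was at 116, 127 and 105 against 80.0, 51.0 and 41.3 CPM (1.01 ± 0.23). TCN2, the carrier of vitamin B12 in plasma, was at 21.1, 32.1 and 44.6 against 17.6, 12.3 and 13.3 CPM (1.18 ± 0.28), and LTBR, the lymphotoxin beta receptor, at 36.6, 38.0 and 49.6 against 27, 14.8 and 20.8 CPM (0.99 ± 0.23). LDAF1, a lipid droplet assembly protein, stood at 5.22, 8.93 and 6.04 against 2.71, 3.10 and 2.05 CPM (1.36 ± 0.32). In each of these 5 genes all high-yielding cows were above all low-yielding ones, and in each edgeR's adjusted p was 0.576. The choice from DESeq2's calls on the same counts favours this separation, which 5.35% of all genes tested had on the higher side.

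Some further values concern loci without a gene name. LOC109556068, annotated as a pseudogene, had 0, 1 and 2 counts in high-yielding and 20, 36 and 81 in low-yielding Gir cows (log2 fold change −5.29 ± 0.78), the gene of second lowest p in edgeR. This locus passed the count filter through the low-yielding cows. LOC109559241, annotated as protein coding, was abundant at 3710, 3490 and 3430 against 2000, 1770 and 2490 CPM (0.76 ± 0.18). LOC109578670 stood at 977, 91.4 and 1380 against 112, 62.3 and 63.7 CPM and LOC109578671 at 112, 3.5 and 201 against 6.46, 3.59 and 4.92 CPM, high in the same 2 cows, high 1 and high 3, as DCSTAMP.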
